A study of Arabidopsis thaliana with 12 samples.

Results

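The alpha-expansins described here are 10 genes of *Arabidopsis thaliana*, *EXPA1*, *EXPA3*, *EXPA4*, *EXPA5*, *EXPA6*, *EXPA8*, *EXPA10*, *EXPA11*, *EXPA15* and *EXPA16*. They were picked out by locus identifier, with earlier results of these data known, and all 10 were found among the 37813 genes of the deposited count table. RNA came from whole rosettes of 4-week-old plants grown under an 8 h photoperiod. The 4 groups were *jac1* sampled 30 min after 100 mJ cm-2 of UV-C, non-treated *jac1*, wild type sampled 30 min after the same dose, and non-treated wild type, with 3 biological replicates in each and at least 4 rosettes per replicate. The mutant carries the *jac1-1* allele in Col-0 *gl1*, and the wild type is Col-0 *gl1*, so both genotypes share the *gl1* mutation, which removes leaf hairs. A single *jac1* allele was sequenced.

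Expansins are secreted proteins that loosen the plant cell wall without cutting its polysaccharides, which lets a cell enlarge under turgor. Alpha-expansins act best at acidic pH, and plasma membrane proton pumps provide that acidity. JAC1 is a J-domain protein needed for chloroplasts to gather at lit cell faces under weak blue light.

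The reads counted per library numbered 20897905 to 27194762 after UV-C and 33999174 to 40445085 without treatment. Chloroplast genes took 1.64 to 2.34% of the reads after UV-C and 0.0172 to 0.0219% without treatment. The TMM factors, which scale libraries for composition, were 0.825 to 0.856 in UV-C treated *jac1* and 0.995 to 1.146 in the other groups. When libraries were scaled only by their size, the log2 FC of the 20093 genes tested had a median of -0.265 for UV-C in *jac1*, -0.15 for UV-C in the wild type, -0.273 and -0.114 for *jac1* against the wild type with and without UV-C, and -0.155 for the interaction, beside 0.045, 0, -0.011, -0.012 and 0.005 with TMM. The share of called genes that were higher was then 37.7%, 61.9%, 23.2%, 40.5% and 36.3% in the same order, beside 65.3%, 75.5%, 59.9%, 52.9% and 54.5% with TMM. *JAC1* transcripts were not lower in *jac1*, at 168 to 181 CPM after UV-C and 135 to 161 CPM without it, against 128 to 152 CPM and 88.1 to 99.2 CPM in the wild type, so this transcript does not check the genotype labels. The 5 mesophyll markers were abundant in all groups, with a summed 29000 to 40500 CPM. Of 4 root markers, *EXPA7* was at 0 in all libraries, *EXPA18* had at most 1 read and *COBL9* at most 2, while *PYK10*, a beta-glucosidase gene, was well expressed in each library and made the list sum to 312 to 450 CPM in UV-C treated *jac1* and 279 to 342 CPM in non-treated *jac1*, against 294 to 335 CPM and 310 to 380 CPM in wild type with and without UV-C. These levels overlap between treated and non-treated plants of each genotype, and their part in the results was not tested. The 4 flower markers summed to 0.668 to 0.975 CPM in UV-C treated *jac1* and 0.512 to 0.702 CPM in non-treated *jac1*, against 2.56 to 3.51 CPM and 1.93 to 2.84 CPM in wild type with and without UV-C, with *AP3*, *PI* and *SEP3* called lower in *jac1* in both treatments.

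Promoters are shown for 4 members, *EXPA16*, which had opposite changes in the genotypes, and *EXPA1*, *EXPA5* and *EXPA10*, which had the lowest log2 FC averaged over both genotypes. Each is the 300 bases before the annotated gene start in the TAIR10 genome held by RefSeq, with matches to any of 10 searched motifs in capitals. *EXPA16* (AT3G55500) has its window at chr3:20576250-20576549 on the minus strand, *EXPA1* (AT1G69530) at chr1:26141426-26141725 on the plus strand, *EXPA10* (AT1G26770) at chr1:9259132-9259431 on the plus strand and *EXPA5* (AT3G29030) at chr3:11013452-11013751 on the minus strand. No other annotated gene overlaps these windows.
EXPA16: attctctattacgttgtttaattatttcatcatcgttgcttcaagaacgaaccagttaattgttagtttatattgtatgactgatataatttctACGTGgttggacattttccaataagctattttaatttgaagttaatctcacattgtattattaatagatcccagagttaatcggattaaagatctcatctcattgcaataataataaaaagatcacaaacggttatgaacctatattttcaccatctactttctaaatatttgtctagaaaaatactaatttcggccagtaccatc
EXPA1: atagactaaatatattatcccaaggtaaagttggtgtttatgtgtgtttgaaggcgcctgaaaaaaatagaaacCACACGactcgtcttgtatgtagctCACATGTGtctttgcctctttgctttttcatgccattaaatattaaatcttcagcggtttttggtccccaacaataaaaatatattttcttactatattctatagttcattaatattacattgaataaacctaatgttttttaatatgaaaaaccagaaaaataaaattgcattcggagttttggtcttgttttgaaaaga
EXPA10: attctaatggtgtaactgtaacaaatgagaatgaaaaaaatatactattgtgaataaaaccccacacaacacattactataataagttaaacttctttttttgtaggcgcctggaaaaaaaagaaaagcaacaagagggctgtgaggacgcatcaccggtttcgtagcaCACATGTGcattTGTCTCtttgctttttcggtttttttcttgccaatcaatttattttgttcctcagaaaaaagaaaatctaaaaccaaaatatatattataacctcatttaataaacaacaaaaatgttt
EXPA5: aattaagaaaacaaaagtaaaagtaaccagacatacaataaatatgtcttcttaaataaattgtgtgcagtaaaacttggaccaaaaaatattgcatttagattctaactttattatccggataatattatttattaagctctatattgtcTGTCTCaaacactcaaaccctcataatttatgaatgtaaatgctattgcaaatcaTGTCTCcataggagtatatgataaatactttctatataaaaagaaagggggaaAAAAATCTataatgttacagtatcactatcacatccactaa

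The motifs were searched on both strands of all 27438 nuclear protein-coding promoters of the same length. ACGTG, the core of abscisic acid response elements, was in 4 of the 10 members, *EXPA3*, *EXPA6*, *EXPA15* and *EXPA16*, and in 25.6% of all promoters. In *EXPA16* it lies 206 to 202 bases before the gene start. CACATG, a site bound by PIF factors, was in *EXPA1*, *EXPA10* and *EXPA11* and in 13.1% of all promoters. In *EXPA1* and *EXPA10* it is part of the palindrome CACATGTG, matched on both strands, which 0.46% of all promoters hold. That 8-letter palindrome was looked up after the sequences were seen. TGTCTC, the auxin response element, was in *EXPA5*, *EXPA6* and *EXPA10*, at 2 places in *EXPA5*, and in 13% of all promoters. CGTGTG, a BZR1 site, was in *EXPA1* and *EXPA6* (6.1% of all promoters), where in *EXPA6* its reverse complement CACACG overlaps the ACGTG match. TTGAC, the W-box core, was in *EXPA4* and *EXPA8* (50.4%), and AAAAATCT, the CCA1-binding site, in *EXPA5* (7.9%). CACGTG, the G-box, which contains ACGTG, was in none of the members (7.1% of all promoters), nor were AAAATATCT, the evening element (2.8%), GCCGCC (2.3%) or CCGAC (13.9%). Among the 45 pairs of members, the longest identical stretch was 14 bases, in *EXPA1* and *EXPA10*, against a median of 9 bases. It reads ctctttgctttttc and starts 186 bases before the gene start in *EXPA1* and 116 bases before it in *EXPA10*. A match is a string of letters and was not tested as a binding site.

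The first question was which alpha-expansins changed within 30 min of UV-C in each genotype. A gene passed the test at a false discovery rate under 0.01, and was called where its absolute log2 FC was also over 1. *EXPA16* rose in *jac1* and fell in the wild type. *EXPA1* and *EXPA5* fell in both genotypes with calls in each, and *EXPA10* fell in both with a call in the wild type. In *jac1*, 1 of the 10 members was called higher and 2 lower, against 8.93% and 4.75% of all genes tested. In the wild type, 0 were called higher and 4 lower, against 6.97% and 2.26% of all genes. Without the fold threshold, 2 members rose and 4 fell in *jac1*, against 26.2% and 22.2% of all genes, and 0 rose and 7 fell in the wild type, against 17% and 17.7%. In the wild type, edgeR's test gave 1 member with a higher value at an unadjusted p under 0.05, *EXPA4*, and DESeq2 called 0 higher. The median log2 FC of the members was -0.29 in *jac1* and -0.83 in the wild type, against 0.045 and 0 over all genes. In whole rosettes, less RNA per cell and fewer cells of a type cannot be told apart.

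**Figure D1:**
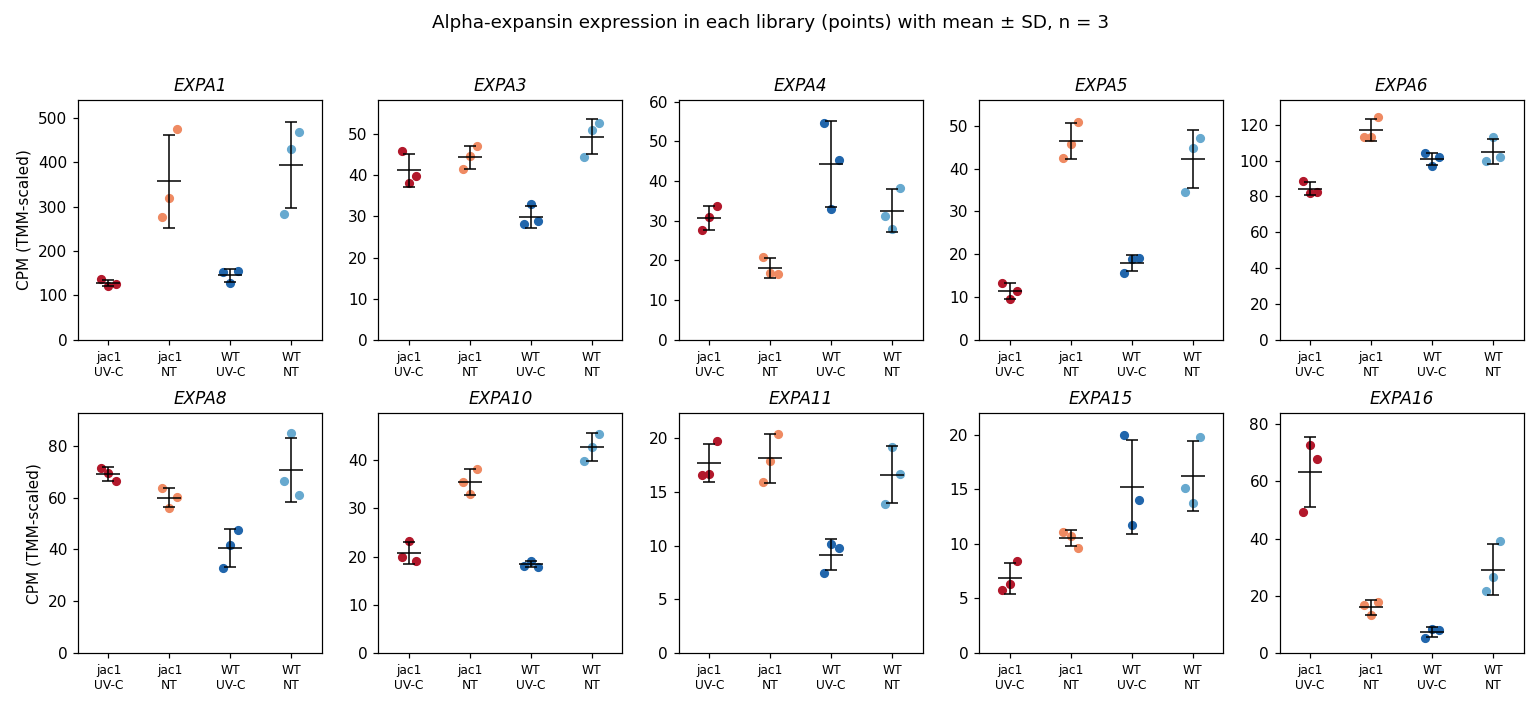
Expression of each alpha-expansin in CPM scaled by TMM (vertical axes, starting at 0) in the 3 libraries of each group (points), with mean and SD (bars). *EXPA16* is highest in UV-C treated *jac1*, at 49.4 to 72.8 CPM, and lowest in UV-C treated wild type, at 5.26 to 8.40 CPM.

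*EXPA16* (AT3G55500, chromosome 3, 20574752 to 20576249) had 49.4, 72.8 and 67.7 CPM in UV-C treated *jac1*, against 16.9, 13.2 and 18.0 CPM in non-treated *jac1*. All 3 treated libraries lay above all 3 non-treated ones, and the gene rose 3.95-fold (log2 FC 1.98, standard error 0.21, adjusted p = 2.69e-06 by the quasi-likelihood test of edgeR, adjusted by Benjamini-Hochberg over all genes, as for all adjusted p-values here). In the wild type it had 5.26, 8.40 and 8.09 CPM after UV-C, against 21.8, 26.7 and 39.2 CPM without treatment. Here the treated libraries all lay below the non-treated ones, and the gene fell to 0.248 of its non-treated level (log2 FC -2.01, standard error 0.24, adjusted p = 1.29e-05). The difference between the changes, the interaction, was 3.99 on the log2 scale (standard error 0.32, adjusted p = 1.86e-06). Both calls and the interaction call held under every alternative run, with the interaction between 3.73 and 4.14.

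*EXPA1* (AT1G69530), which takes part in stomatal opening, had the highest level per length of the 10 genes in every group. It had 137, 122 and 126 CPM in UV-C treated *jac1*, against 276, 319 and 475 CPM in non-treated *jac1*, and fell to 0.359 of its non-treated level (log2 FC -1.48, standard error 0.19, adjusted p = 1.73e-05). Wild type had 152, 129 and 156 CPM after UV-C, against 284, 430 and 468 CPM without treatment, a fall to 0.370 (log2 FC -1.43, standard error 0.19, adjusted p = 3.97e-05). The non-treated libraries spread widely, but the treated ones lay below all of them in both genotypes. The interaction was -0.05 (standard error 0.27, adjusted p = 0.923). The 3 guard cell markers *KAT1*, *FAMA* and *MYB60* also passed the test as lower after UV-C in both genotypes, with a summed 26.5 to 31.2 CPM in treated and 55.4 to 64.2 CPM in non-treated *jac1*, and 29.9 to 31.0 CPM in treated and 50.2 to 56.9 CPM in non-treated wild type. Their part in the *EXPA1* result was not tested.

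*EXPA5* (AT3G29030), needed for full growth in response to brassinosteroids, had 13.3, 9.46 and 11.5 CPM in UV-C treated *jac1*, against 42.5, 45.8 and 50.8 CPM in non-treated *jac1*. It had 15.7, 18.9 and 19.1 CPM in UV-C treated wild type, against 34.5, 44.8 and 47.2 CPM in non-treated wild type. The treated and non-treated libraries did not overlap in either genotype. Expression fell to 0.247 of the non-treated level in *jac1* (log2 FC -2.02, standard error 0.14, adjusted p = 3.91e-08) and to 0.424 in the wild type (log2 FC -1.24, standard error 0.13, adjusted p = 4.33e-06). The fall was larger in *jac1*, with an interaction of -0.78 (standard error 0.19, adjusted p = 0.00888), although over the alternatives the adjusted p of this difference reached 0.048.

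*EXPA10* (AT1G26770), which promotes leaf growth, had 19.9, 23.3 and 19.2 CPM in UV-C treated *jac1*, against 35.5, 32.9 and 38.2 CPM in non-treated *jac1*. Wild type had 18.1, 19.1 and 17.9 CPM after UV-C, against 39.8, 42.7 and 45.5 CPM without treatment. It was lower in every treated library of both genotypes. The log2 FC was -0.77 in *jac1* (standard error 0.083, adjusted p = 2.65e-06) and -1.22 in the wild type (standard error 0.082, adjusted p = 5.20e-08), and the interaction of 0.44 did not pass the test (adjusted p = 0.0137). Over the alternatives the adjusted p of that interaction ranged from 0.00354 to 0.0981. With library size scaling the *jac1* change was also called, at -1.08. Across the 12 libraries, log2 CPM of *EXPA1* had a Pearson r of 0.95 with *EXPA5* and 0.93 with *EXPA10*, in libraries that share their 4 groups and their scaling.

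*EXPA3*, *EXPA8* and *EXPA11* fell in the wild type, and in *jac1* their log2 FC lay between -0.1 and 0.2 and did not pass the test. Over the alternatives the log2 FC of *EXPA3* in *jac1* ranged from -0.414 to -0.0491. Its adjusted p there ranged from 0.000353 to 0.687, so whether *EXPA3* passed as lower in *jac1* depended on the processing. *EXPA8* (AT2G40610) had 71.4, 69.3 and 66.2 CPM in UV-C treated *jac1*, against 63.7, 56.1 and 60.3 CPM in non-treated *jac1*. Wild type had 32.9, 41.7 and 47.3 CPM after UV-C, against 66.2, 84.7 and 61.1 CPM without treatment. The treated wild-type libraries were all below the non-treated ones (log2 FC -0.80, adjusted p = 0.000161). In *jac1* the treated libraries were all above the non-treated ones, but the log2 FC of 0.20 did not pass the test (adjusted p = 0.182). Its sign turned, to -0.111, when libraries were scaled by size alone.

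*EXPA11* (AT1G20190) had 16.6, 16.7 and 19.7 CPM in UV-C treated *jac1*, against 15.9, 17.9 and 20.4 CPM in non-treated *jac1*, which overlap. Wild type had 7.47, 10.1 and 9.78 CPM after UV-C, against 13.9, 19.2 and 16.7 CPM without treatment, and *EXPA11* fell (log2 FC -0.86, standard error 0.14, adjusted p = 0.000228), with a call at -1.01 when libraries were scaled only by size. *EXPA3* (AT2G37640) had 45.9, 38.1 and 39.8 CPM in UV-C treated *jac1*, against 41.4, 44.6 and 47.1 CPM in non-treated *jac1*. Those libraries overlap, whereas in the wild type *EXPA3* fell, with 28.1, 32.9 and 28.8 CPM after UV-C against 44.5, 51.0 and 52.6 CPM without treatment (log2 FC -0.72, standard error 0.089, adjusted p = 1.90e-05). The interaction passed the test for all of *EXPA3* (0.62, adjusted p = 0.0029), *EXPA8* (1.0, adjusted p = 0.00118) and *EXPA11* (0.84, adjusted p = 0.00725). Over the alternatives, several of which leave out 1 library, the adjusted p of these interactions reached 0.0173, 0.0109 and 0.0265 in the same order, so none of the 3 passed under all of them.

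The remaining 3 members were *EXPA6*, *EXPA4* and *EXPA15*, and none of them was called for UV-C. *EXPA6* (AT2G28950) had 88.4, 82.1 and 82.2 CPM in UV-C treated *jac1*, against 113, 113 and 124 CPM in non-treated *jac1*, and fell by 0.47 on the log2 scale (standard error 0.063, adjusted p = 2.42e-05). In the wild type its libraries overlapped, at 104, 97.2 and 102 CPM after UV-C and 100, 113 and 102 CPM without treatment. The interaction of *EXPA6* was -0.41 (standard error 0.089, adjusted p = 0.00427), with an adjusted p of up to 0.0328 over the alternatives. *EXPA4* (AT2G39700) was the only member other than *EXPA16* to rise, with 27.7, 30.9 and 33.6 CPM in UV-C treated *jac1*, against 20.8, 16.9 and 16.5 CPM in non-treated *jac1* (log2 FC 0.76, standard error 0.17, adjusted p = 0.00133). Wild-type *EXPA4* had 54.5, 32.9 and 45.2 CPM after UV-C, against 31.3, 27.8 and 38.3 CPM without treatment, which overlap (log2 FC 0.45, adjusted p = 0.0327). Over the alternatives the adjusted p of this wild-type change ranged from 0.00167 to 0.183. The interaction of *EXPA4* was 0.32 and did not pass the test (adjusted p = 0.348). *EXPA15* (AT2G03090) did not pass the test in either genotype, at -0.61 in *jac1* on the log2 scale (adjusted p = 0.0189) and -0.09 in the wild type (adjusted p = 0.712). Over the alternatives its change in *jac1* ranged from -0.922 to -0.498, with an adjusted p from 0.000257 to 0.0865.

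**Figure D2:**
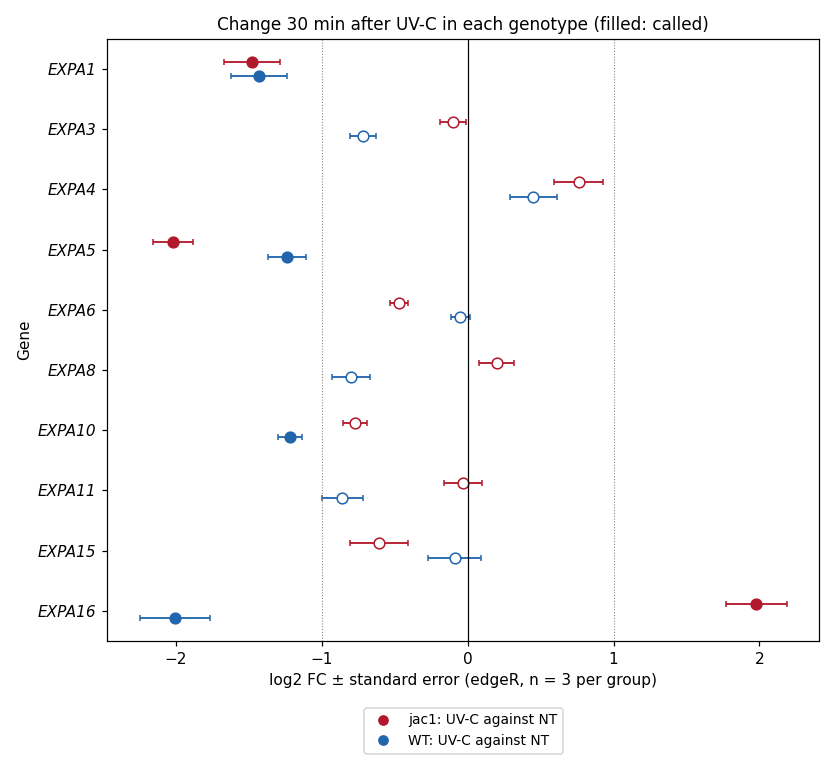
Log2 FC of UV-C treated over non-treated plants for each alpha-expansin (horizontal axis, bars are 1 standard error) in *jac1* (red, upper point) and wild type (blue, lower point), with called changes filled and dotted lines at -1 and 1. *EXPA16* lies at 1.98 in *jac1* and -2.01 in the wild type, while *EXPA1* and *EXPA5* lie below -1 in both.

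The second question was whether *jac1* and the wild type differed in alpha-expansin expression. After UV-C, *EXPA16* was 8.74-fold higher in *jac1* (log2 FC 3.13, standard error 0.24, adjusted p = 4.58e-07). *EXPA15* was lower, with 5.80, 6.31 and 8.47 CPM in UV-C treated *jac1* against 20, 11.7 and 14 CPM in UV-C treated wild type (log2 FC -1.15, standard error 0.21, adjusted p = 0.000599). The groups did not overlap, but without replicate 1 of the UV-C treated wild type, its highest library, the log2 FC was -0.915 and under the fold threshold. Without treatment *EXPA15* also had a lower value in *jac1* (log2 FC -0.63, adjusted p = 0.0263), and its interaction of -0.52 did not pass the test (adjusted p = 0.183). *EXPA16* and *EXPA15* were the only members called after UV-C. Thus 1 of 10 members was called higher and 1 lower, against 2.52% and 1.69% of all genes tested. Without the fold threshold, 4 were higher and 3 lower, against 16.7% and 11.4% of all genes. *EXPA3* (log2 FC 0.46, adjusted p = 0.00121), *EXPA8* (0.77, adjusted p = 0.000366) and *EXPA11* (0.96, adjusted p = 0.000198) were the other higher ones, with each *jac1* library above each wild-type library. *EXPA11* was called when replicate 2 or 3 of the UV-C treated wild type or replicate 1 of UV-C treated *jac1* was left out, at 1.04, 1.01 and 1.0. *EXPA5* (-0.64, adjusted p = 0.00325) and *EXPA6* (-0.26, adjusted p = 0.00476) were lower in *jac1*. *EXPA1*, *EXPA4* and *EXPA10* did not pass the test, and the sign of *EXPA10*, 0.18, turned to -0.0841 with library size scaling. Over the alternatives the adjusted p of *EXPA4* ranged from 0.000523 to 0.0992.

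Without treatment, 0 of the 10 members were called in either direction, against 1.03% of all genes called higher and 0.916% called lower. By edgeR's quasi-likelihood test without the fold threshold, 0 were higher and 1 lower in *jac1*, against 5.23% and 4.29% of all genes, with 1 and 4 at an unadjusted p under 0.05, and DESeq2 called 0 members. The lower one was *EXPA4*, with 20.8, 16.9 and 16.5 CPM in non-treated *jac1* against 31.3, 27.8 and 38.3 CPM in non-treated wild type (log2 FC -0.84, standard error 0.16, adjusted p = 0.00252). *EXPA16* was lower in every non-treated *jac1* library than in every non-treated wild-type one, at -0.86 on the log2 scale (standard error 0.21, adjusted p = 0.0107). It was called, at -1.03, when replicate 1 of the non-treated wild type was left out. *EXPA10* (-0.26, adjusted p = 0.0294) and *EXPA15* (-0.63, adjusted p = 0.0263) were likewise lower in every non-treated *jac1* library, and neither passed the test. Over the alternatives their adjusted p was as low as 0.00507 and 0.00104.

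For the interaction, 2 members were called higher and 0 lower by edgeR's test (2 lower at an unadjusted p under 0.05, and 1 higher and 0 lower by DESeq2), against 2.12% and 1.77% of all genes, namely *EXPA16* and *EXPA8*. The *EXPA8* value of 1.0 lay at the fold threshold. It was 0.90 with the likelihood ratio test, 0.959 with DESeq2, 0.84 with library size scaling, and between 0.847 and 1.12 with single libraries left out, under the threshold without replicate 2 of the non-treated wild type (0.85), replicate 1 of the UV-C treated wild type (0.847), replicate 2 of non-treated *jac1* (0.955) or replicate 1 or 2 of UV-C treated *jac1* (0.975 and 0.997). Without the fold threshold, 4 members had a higher interaction and 2 a lower one, against 8.32% and 5.10% of all genes. Flower markers were also lower in *jac1* than in the wild type in both treatments, and their part in the genotype differences was not tested. Among 5 clock genes, *PRR5* had a log2 FC of 1.29 after UV-C in *jac1* and -3.85 in the wild type, and an interaction of 5.15 (adjusted p = 1.15e-07). The interaction of *TOC1* was 1.51 and called, while those of *CCA1* and *LHY* were called in the opposite direction (-1.62 and -2.09). That of *ELF4*, 2.09, did not pass the test (adjusted p = 0.223). After UV-C in the wild type, *CCA1* was called higher (1.05) and *TOC1* and *ELF4* lower (-2.13 and -5.07). In *jac1*, *LHY* and *ELF4* were called lower (-1.13 and -2.98). Without treatment all 5 clock genes were called between the genotypes, with *CCA1* and *LHY* higher in *jac1* (log2 FC 1.74 and 1.57) and *TOC1*, *PRR5* and *ELF4* lower (-1.87, -3.88 and -4.08). Their part in the alpha-expansin results was not tested.

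**Figure D3:**
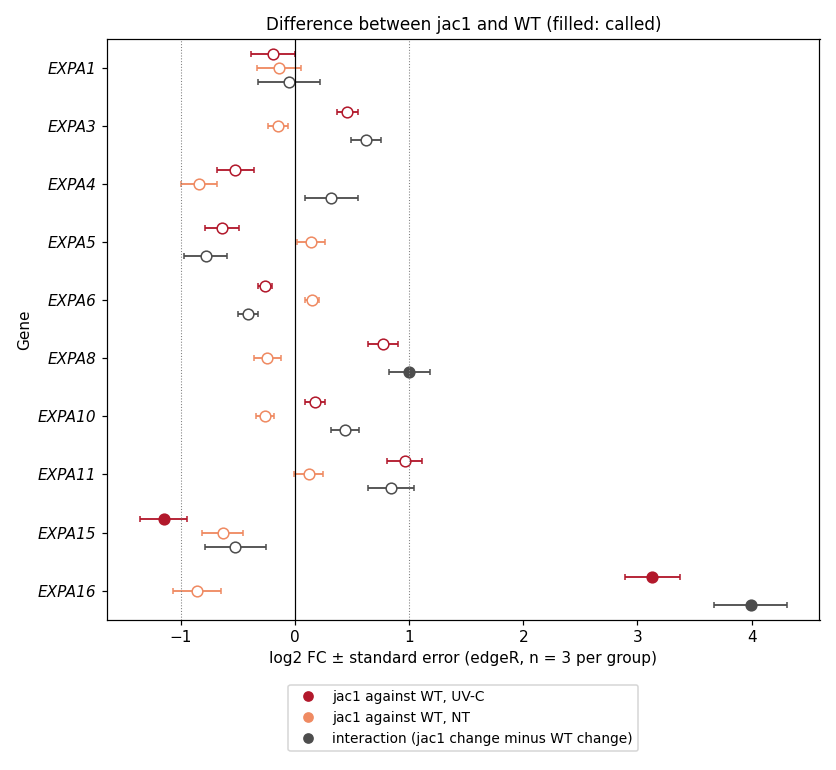
Log2 FC of *jac1* over wild type after UV-C (red, upper point) and without treatment (orange, middle), and the interaction (grey, lower), for each alpha-expansin (bars are 1 standard error, called values filled). *EXPA16* lies at 3.13 after UV-C, -0.86 without treatment and 3.99 for the interaction, and the other members lie between -1.15 and 1.0.

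Levels were compared between genes as RPKM, which divides by exon length. The 10 genes summed to 321 ± 1.3 RPKM in UV-C treated *jac1* and 475 ± 78.1 RPKM in non-treated *jac1*, and to 282 ± 16.1 RPKM in UV-C treated and 527 ± 84.6 RPKM in non-treated wild type (SD, n = 3 each). *EXPA1* made up 24.5 to 27.6% of that sum in UV-C treated *jac1* and 42.5 to 54.4% in non-treated *jac1*, against 31.6 to 34.3% and 42.7 to 51.5% in wild type with and without UV-C. *EXPA16* made up 12.4 to 18.1% in UV-C treated *jac1* and 2.39 to 3.21% in non-treated *jac1*, and 1.47 to 2.54% in UV-C treated and 3.78 to 5.34% in non-treated wild type. No library of UV-C treated *jac1* overlapped another group in the *EXPA16* share.

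The order of the genes by mean RPKM was led in all 4 groups by *EXPA1*, then *EXPA6*, then *EXPA8*. In UV-C treated *jac1* *EXPA1* had 82.7 RPKM, followed by *EXPA6* (53.0), *EXPA8* (52.1) and *EXPA16* (50.6), each overlapping the next in its libraries, then *EXPA3* (23.1) and *EXPA4* (20.5), which overlapped, *EXPA11* and *EXPA10* (13.2 each), which overlapped, *EXPA5* (7.99) and *EXPA15* (4.79). In non-treated *jac1* the order was *EXPA1* (231), *EXPA6* (73.3), *EXPA8* (45.3), *EXPA5* (32.5), *EXPA3* (24.9) and *EXPA10* (22.6), which overlapped, then *EXPA11* (13.5), *EXPA16* (12.8) and *EXPA4* (12), each overlapping the next, and *EXPA15* (7.31). *EXPA16* thus had rank 4 in the treated mutant and rank 8 in the non-treated one.

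In UV-C treated wild type the order was *EXPA1* (94.2 RPKM), *EXPA6* (63.6), *EXPA8* (30.7) and *EXPA4* (29.5), which overlapped, *EXPA3* (16.8), then *EXPA5* (12.5), *EXPA10* (11.7) and *EXPA15* (10.6), each overlapping the next, and *EXPA11* (6.80) and *EXPA16* (5.80), which overlapped. In non-treated wild type it was *EXPA1* (254), *EXPA6* (66.0) and *EXPA8* (53.3), which overlapped, then *EXPA5* (29.6), *EXPA3* (27.7), *EXPA10* (27.2), *EXPA16* (23.4) and *EXPA4* (21.6), each overlapping the next, and *EXPA11* (12.4) and *EXPA15* (11.3), which overlapped. *EXPA16* had the lowest mean of the 10 genes in UV-C treated wild type.

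**Figure D4:**
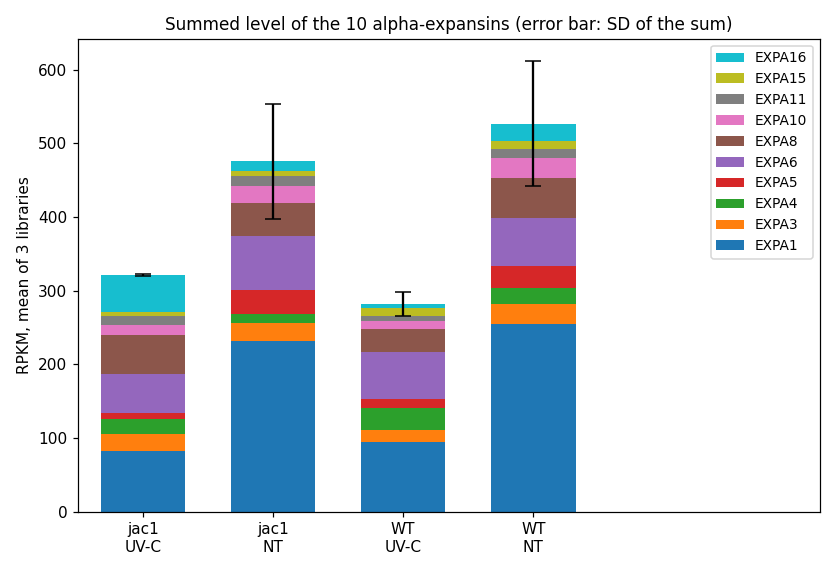
Mean RPKM of the 10 alpha-expansins stacked for each group (vertical axis from 0, error bar is the SD of the sum over 3 libraries). The sum is 321 and 475 RPKM in UV-C treated and non-treated *jac1*, and 282 and 527 RPKM in wild type with and without UV-C, and the *EXPA16* segment is largest in UV-C treated *jac1*.

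The genes whose log2 CPM followed *EXPA16* most closely over the 12 libraries were *RAB18* (Pearson r 0.986), a dehydrin induced by abscisic acid, AT1G30260 (0.976), *PKT3* (0.969), a peroxisomal thiolase of fatty acid breakdown, *TET3* (0.967), a tetraspanin, and AT1G73390 (0.967). The libraries share their 4 groups, so these values describe the group pattern. They were picked for that likeness, so their changes after UV-C are given without a test, at 2.07 on the log2 scale in *jac1* and -1.5 in the wild type for *RAB18*, and from 0.34 to 0.91 in *jac1* and from -0.81 to -0.28 in the wild type for the other 4. Among the members, *EXPA8* (0.80) and *EXPA11* (0.75) were most alike to *EXPA16*, and *EXPA15* (-0.59) least.

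Most other genes of the family had few or no reads in rosettes. Of 16 further alpha-expansins, 12 had too few reads to be tested, with at most 7 reads in a library, and 7 of these had 0 reads in all 12 libraries. Among the 4 tested, *EXPA14* rose after UV-C, with 2.69, 2.98 and 3.03 CPM in UV-C treated *jac1* against 1.48, 1.25 and 1.39 CPM in non-treated *jac1* (log2 FC 1.07, adjusted p = 0.000114), and with a log2 FC of 0.76 in the wild type (adjusted p = 0.00343). The other 3 did not pass the test for UV-C in either genotype.

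Of 10 beta-expansin and expansin-like genes, 7 were tested. After UV-C, 1 was called higher in *jac1* and 3 in the wild type (8.93% and 6.97% of all genes), and none was called lower (4.75% and 2.26% of all genes). With no fold threshold 3 rose and 1 fell in *jac1*, against 26.2% and 22.2% of all genes. In the wild type 4 rose and 0 fell, against 17% and 17.7% of all genes. *EXLA3* had 3.84, 2.64 and 5.24 CPM in UV-C treated *jac1*, against 0.242, 0.409 and 0.341 CPM in non-treated *jac1*, and it rose in both genotypes (log2 FC 3.56 in *jac1* and 3.32 in the wild type, adjusted p = 7.13e-07 and 2.02e-06). *EXLA1* and *EXLA2* rose in the wild type (log2 FC 1.72 and 1.19) and had log2 FC of 0.16 and 0.00 in *jac1*, where their non-treated level was already above the wild type (log2 FC 1.94 and 1.14, called). Their interactions of -1.57 and -1.19 (adjusted p = 0.00422 and 0.00231) had the opposite sign to that of *EXPA16*. *EXLB1* was the gene that fell after UV-C in *jac1* (log2 FC -0.91, adjusted p = 0.00205), with 0.19 in the wild type (adjusted p = 0.391). Its interaction of -1.11 did not pass the test (adjusted p = 0.0106). After UV-C *EXLB1* was lower in *jac1* than in the wild type (log2 FC -1.70, adjusted p = 3.31e-05). Without treatment that difference was -0.59 and did not pass the test (adjusted p = 0.0353).

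Genes that act beside alpha-expansins in growth were taken as lists. The 6 SAUR19 subfamily genes, whose products keep proton pumps active, were all called higher after UV-C in *jac1* (median log2 FC 2.53), and 4 of 6 in the wild type (median 1.69), against 8.93% and 6.97% of all genes. *SAUR22* had 8.15, 5.91 and 5.85 CPM in UV-C treated *jac1*, against 0.411, 0.327 and 0.341 CPM in non-treated *jac1* (log2 FC 4.19, adjusted p = 7.09e-08). Its change was 2.31 in the wild type, and the interaction was 1.88 (adjusted p = 0.00882), the largest of the 6. By edgeR's test 2 of the 6 interactions were called higher, against 2.12% of all genes. The other 4 lay above 0 but did not pass the test. These genes are tandem copies of similar sequence, and reads with several alignments were not counted, so their values are uncertain.

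Of 11 plasma membrane proton pump genes, 9 were tested and 0 called in any contrast by edgeR's quasi-likelihood test. Of all genes, 13.7% were called for UV-C in *jac1* and 9.24% in the wild type. Between the genotypes 4.21% were called with UV-C and 1.95% without, and 3.88% for the interaction. By the same test with no fold threshold, 1 rose and 3 fell after UV-C in each genotype, where 26.2% of all genes rose and 22.2% fell in *jac1* and 17% rose and 17.7% fell in the wild type, and at an unadjusted p under 0.05 these counts were 2 and 3 in *jac1* and 1 and 3 in the wild type. Of 7 genes for cellulose synthesis in primary walls, 0 were called in any contrast by edgeR's quasi-likelihood test, beside the same called shares of all genes. With no fold threshold 1 fell in *jac1* and 3 fell in the wild type after UV-C (22.2% and 17.7% of all genes), and at an unadjusted p under 0.05 the counts were 2 and 4. Between the UV-C treated genotypes, 3 cellulose genes and 1 pump gene were higher in *jac1* with no fold threshold, against 16.7% of all genes. By edgeR's test 0 of either list were lower there, against 11.4% of all genes.

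Of 12 growth regulators, 6 were called higher after UV-C in *jac1* and 3 in the wild type (8.93% and 6.97% of all genes), and 0 were called lower by edgeR's test (4.75% and 2.26% of all genes), with 1 and 3 lower at an unadjusted p under 0.05. *PIF4*, a transcription factor that promotes elongation, rose in *jac1* (log2 FC 3.42, adjusted p = 2.56e-11) and in the wild type (1.92, adjusted p = 2.05e-08), with an interaction of 1.5 (adjusted p = 1.79e-05). *ATHB2*, a shade response factor, had log2 FC of 2.19 and 1.18 and an interaction of 1.02 (adjusted p = 5.14e-05). *PIF5* rose by 1.53 in *jac1* and 1.49 in the wild type. Both *PIF5* (log2 FC 1.67 and 1.63) and *PIF4* (2.54 and 1.04) were called higher in *jac1* than in the wild type with and without UV-C. By edgeR's test 5 of the 12 regulators were called higher in *jac1* after UV-C and 2 without it, against 2.52% and 1.03% of all genes. In the same test 0 were called lower, against 1.69% and 0.916% of all genes. *IBH1*, an inhibitor of cell elongation, rose in *jac1* (1.17, adjusted p = 1.12e-07) and had 0.19 in the wild type (adjusted p = 0.109).

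**Figure D5:**
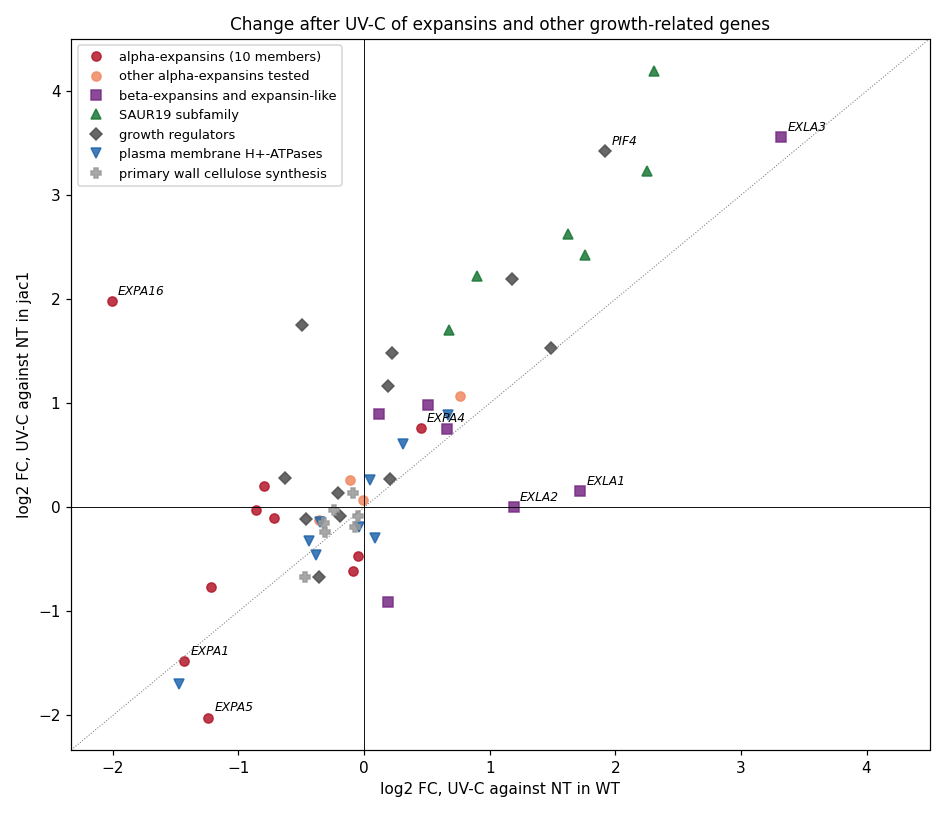
Log2 FC after UV-C in *jac1* (vertical axis) against that in the wild type (horizontal axis) for the 10 alpha-expansins and the tested genes of the other lists, each point a gene, with the dotted line marking equal change. *EXPA16* stands at 1.98 and -2.01, *EXLA3* and the SAUR19 subfamily lie above 0 on both axes, and *EXLA1* and *EXLA2* lie at 0.16 and 0.00 in *jac1* and 1.72 and 1.19 in the wild type.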

How the data were processed

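RNA-seq was measured in 12 rosette samples, 3 biological replicates in each of 4 groups, grouped by the sample titles. The authors purified mRNA with poly-T beads, aligned the reads with STAR 2.5.2b and deposited raw counts per gene from featureCounts (Subread 1.6.2). By the file header, 1 read file per library was counted with Araport11 annotation, without strand, and without reads of several alignments or genes. The deposited length column is the summed exon length in bases, a measure in other units than counts, and was used for RPKM. No 76-base stretch within an exon of the 10 genes occurred elsewhere in the genome, and no annotated gene overlapped them. Coordinates of 37469 of 37517 nuclear genes equalled RefSeq's TAIR10 annotation, which gave gene types and promoters. Chloroplast genes were matched by position (128 of 134), and the 162 mitochondrial genes were tested only where every annotated gene was.

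R 4.3.3, edgeR 4.0.16 and limma 3.58.1 were used. The 20093 protein-coding genes that reached 5 reads in 3 or more samples were scaled by TMM and fitted with 1 mean per group, using all 12 samples. The 5 contrasts were UV-C in each genotype, *jac1* against wild type with and without UV-C, and their interaction (the log2 FC in *jac1* minus that in the wild type), each tested two-sided by the quasi-likelihood test of edgeR and adjusted by Benjamini-Hochberg over the genes tested. The likelihood ratio test of the study was an alternative. On simulated data the main test found 199 of 200 changed genes for UV-C in *jac1*, with 0 unchanged genes called. For the interaction it found 197 of 200, with 2 unchanged genes called, among 19962 genes. The planted changes all exceeded the fold threshold and lay only in UV-C treated *jac1*. Every other gene was given the same mean in all groups. The simulation therefore does not show how the test performs for smaller changes or where many genes change. CPM and RPKM used TMM-scaled library sizes, and log2 CPM for correlations a prior count of 2. Depth per library is given with the results, and the counts of each member exceeded the filter in all groups.

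The genes named are all 10 members, up to 4 called genes per list and contrast by lowest p, and the 5 genes most correlated with the member of largest interaction. The members, lists and tests were chosen with earlier results of these data known, and the promoter motifs after the values were seen. Alternatives tried were DESeq2 1.42.0 and its size factors, the likelihood ratio test, library size only, no filter, filterByExpr, nuclear genes only, every annotated gene, fits on just the samples compared, a replicate block by title or library number, a false discovery rate of 0.05, no fold threshold, and each sample left out in turn.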

Additional observations from a re-analysis of the deposited data

Results flagged for a closer look

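For 6 of the 10 alpha-expansins, the change after UV-C in *jac1* differed from that in the wild type by edgeR's interaction test at a false discovery rate under 0.01. Over all genes tested, 8.32% passed this test with a higher interaction and 5.1% with a lower one. The difference on the log2 scale was 3.99 for *EXPA16*, 1.0 for *EXPA8*, 0.84 for *EXPA11* and 0.62 for *EXPA3*, which were higher in *jac1*. It was -0.78 for *EXPA5* and -0.41 for *EXPA6*, where the change was lower in *jac1*. The difference passed under all alternatives run only for *EXPA16*. *EXPA16* was the only one that passed the test in opposite directions in the 2 genotypes.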

How the results depend on the processing

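With no fold threshold, the members called numbered 6 for UV-C in *jac1*, 7 for UV-C in the wild type, 7 and 1 for *jac1* against the wild type with and without UV-C, and 6 for the interaction. The interaction count was 1 in place of 2 with DESeq2 or its size factors, the likelihood ratio test, library size only, and the replicate block by title numbers, each time because *EXPA8* fell under the fold threshold. With single samples left out, the counts ranged over 3 to 3 for UV-C in *jac1*, 4 to 4 for UV-C in the wild type, 1 to 3 and 0 to 1 for *jac1* against the wild type with and without UV-C, and 1 to 2 for the interaction. The labels do not say that a number marks a shared batch, so the numbers were not treated as pairing. Deviations of same-numbered samples correlated between -0.124 and 0.248 for title numbers (3 of 18 pairs over 0.1) and between -0.135 and 0.076 for library numbers (0 of 10 pairs). Samples with unlike numbers were not compared, so these values do not decide whether the samples were paired. The replicate block by library numbers gave 2 interaction calls, with *EXPA11* (1.02) in place of *EXPA8*, and moved the number of all genes called between non-treated genotypes to 191, from 391. Library size scaling moved the number for UV-C treated genotypes to 1275, from 846. With no fold threshold the numbers of all genes were 9727 and 6966 for UV-C in *jac1* and wild type, 5640 and 1913 between genotypes with and without UV-C, and 2695 for the interaction, against 2748, 1856, 846, 391 and 780.

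Reversed signs occurred only in values that had not passed the test. With single samples left out, the interaction of *EXPA1* ranged from -0.201 to 0.216, above 0 without replicate 1 of the non-treated wild type (0.119), replicate 3 of the UV-C treated wild type (0.00436) or replicate 3 of non-treated *jac1*, and it was 0.177 with the likelihood ratio test. Without treatment, *jac1* against wild type ranged from -0.404 to 0.0125 for *EXPA1*, the highest without replicate 1 of *jac1*. For *EXPA11*, UV-C in *jac1* ranged from -0.114 to 0.0701, above 0 without replicate 3 of the non-treated (0.0701) or replicate 1 or 2 of the UV-C treated mutant (0.0165 and 0.011), and it was 0.0814 with the replicate block by library numbers, which also gave -0.0515 for *jac1* against non-treated wild type. For UV-C in the wild type, *EXPA15* ranged from -0.336 to 0.0791, above 0 without replicate 2 of the UV-C treated (0.0754) or replicate 3 of the non-treated plants, and *EXPA6* from -0.0821 to 0.00371, above 0 without replicate 2 of the non-treated plants. With library size only, *EXPA10* was -0.0841 for *jac1* against wild type after UV-C and *EXPA8* was -0.111 for UV-C in *jac1*. The causes were not tested. The fit on only the samples compared was not run for the interaction.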
